A study of Gallus gallus with 12 samples.

Results

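Open chromatin was compared between dorsal retina of chicken embryos at Hamburger-Hamilton (HH) stage 30 and the optic fissure margin (OFM) at HH34. This is a crossed pair of groups, which shares neither the tissue nor the stage. The members are the 106170 peaks of the dorsal HH30 list and the 105103 peaks of the OFM HH34 list, 211273 of the 421414 peaks in the 4 lists of the study. All embryos were wildtype hy-line chicken. Each group had 3 replicates, and each replicate pooled dissected tissue of 10 embryos, from which 50000 cells were taken into omni-ATAC-seq. In that assay the transposase Tn5 cuts accessible DNA, so that dense insertions mark open chromatin. The authors called peaks jointly over the replicates of a group, so each group is 1 list with no value per replicate. No difference between the lists could be held against replicate spread, no p-value was computed, and intervals below cover counting error only.

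In the forming eye, the optic cup is open ventrally at the optic fissure, and the margins of this cleft later meet and fuse. Dorsal retina belongs to the same neural epithelium but has no fissure. In vertebrates the dorsal retina is patterned by BMP signalling and T-box factors, and the ventral retina with the fissure by Pax2 and Vax factors. Neurons are added to the retina over these stages, so a younger and an older sample differ in maturity as well as in position. An accessible site is often a promoter or an enhancer, and sites used by 1 region or stage alone tend to lie away from promoters. In tissue pools, fewer cells with an open site and less opening per cell cannot be told apart.

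The 2 lists were of nearly the same kind. Their median peak widths were 382 bp in dorsal HH30 and 378 bp in OFM HH34. They covered 64.6 Mb and 64.3 Mb of the genome. The −log10 q that the authors' caller gave each summit had medians of 7.51 and 7.61. It measures statistical significance and is not a direct measure of signal height. Peaks of both lists lay on the same 34 chromosomes. Genes were not placed next to peaks, because no gene annotation in the same coordinates was used here, and the tissue labels were therefore not checked against marker genes.

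A peak was called matched when it shared at least 1 bp with a peak of the other list. Of the dorsal HH30 peaks, 92169 were matched, a share of 86.8% (95% Wilson interval 86.6% to 87.0%). The remaining 14001, or 13.2%, had no OFM HH34 counterpart. Of the OFM HH34 peaks, 91983 were matched, a share of 87.5% (95% Wilson interval 87.3% to 87.7%), and 13120, or 12.5%, had no dorsal HH30 counterpart. Younger dorsal retina and older fissure margin thus shared most of their called sites, and the unmatched shares of the lists were within 1 percentage point. By length, the shared bases made up 88.5% of the dorsal HH30 list and 88.9% of the OFM HH34 list.

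Few peaks lay near the 1 bp line between matched and unmatched. Stricter rules moved many more, and at 50% reciprocal overlap 21479 dorsal HH30 and 20412 OFM HH34 peaks were unmatched. Of 94326 overlapping peak pairs only 10 shared 50 bp or less, and the smallest overlap was 9 bp. No unmatched peak of either list lay within 50 bp of the other list. The closest was 74 bp away for dorsal HH30 and 62 bp away for OFM HH34. The median distance from an unmatched peak to the nearest peak of the other list was 2283 bp for dorsal HH30 and 1681 bp for OFM HH34. Within 500 bp of the other list lay 20.9% of the unmatched dorsal HH30 peaks and 23.9% of the unmatched OFM HH34 peaks.

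Unmatched peaks were small and weak in both lists. Unmatched dorsal HH30 peaks had a median width of 209 bp against 426 bp for matched ones, and a median −log10 q of 4.18 against 8.53. Unmatched OFM HH34 peaks had a median width of 231 bp against 417 bp, and a median −log10 q of 4.13 against 8.65. The middle 50% of unmatched peaks lay between 3.73 and 4.89 in −log10 q for dorsal HH30 and between 3.66 and 4.90 for OFM HH34. On each of the 34 chromosomes the unmatched peaks were narrower, and lower in −log10 q, than the matched peaks of their list.

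Peaks were ranked within each list by the authors' area score, and ranks were turned into percentiles with 100 for the highest. How this score is built is not given in the sources used here, so a high rank is not a direct measure of signal amount. Strong and weak peaks are named by this rank. Below the 10th percentile, 51.8% of dorsal HH30 peaks and 45.6% of OFM HH34 peaks had no counterpart. Between the 40th and the 50th percentile these shares had fallen to 6.28% and 7.09%. Between the 70th and the 80th percentile they were 0.509% and 0.428%. Above the 90th percentile no peak of either list was unmatched, 0 of 10617 in dorsal HH30 and 0 of 10511 in OFM HH34. By the 1 bp rule, the highest-ranked sites of younger dorsal retina were therefore all called in older fissure margin too, and the reverse held as well. A counterpart could stand far lower in rank. On chromosome 7, a dorsal HH30 peak at percentile 96.6 overlapped only OFM HH34 peaks at 28.5 and 53.4. The lists differed from each other mainly at the lowest ranks, where the dorsal HH30 list had the larger unmatched share.

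At a like rank, unmatched and matched peaks still differed in the −log10 q of the summit over much of the range. Between the 60th and the 70th percentile, the median −log10 q of unmatched peaks was 9.51 in dorsal HH30 and 9.14 in OFM HH34, against 10.7 and 10.9 for matched peaks. Unmatched peaks of this range were wider, with medians of 544 bp and 565 bp against 484 bp and 481 bp. In this range they reached a like area score with a lower −log10 q at the summit and a greater width. The width order did not hold in every step. In dorsal HH30, unmatched peaks were narrower below the 10th percentile (169 bp against 182 bp) and from the 10th to the 20th (197 bp against 200 bp). They were also narrower there from the 70th to the 80th (638.5 bp against 650 bp). In OFM HH34 they were narrower from the 80th to the 90th (939 bp against 1018 bp), and wider in the remaining steps of both lists. Below the 10th percentile the −log10 q was nearly equal, 3.74 against 3.70 in dorsal HH30 and 3.65 against 3.75 in OFM HH34.

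**Figure D1:**
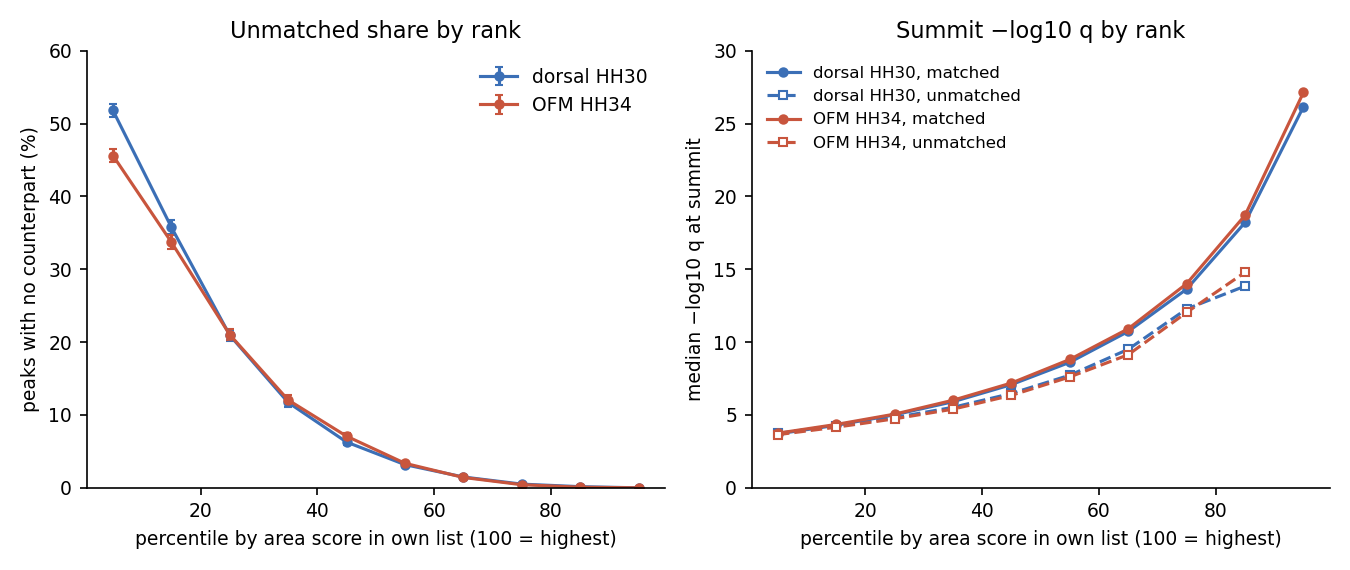
Left, the share of peaks with no counterpart in the other list (%, with 95% Wilson intervals) in steps of 10 percentiles by area score, in dorsal HH30 and OFM HH34. Right, the median −log10 q at the summit of matched (filled) and unmatched (open) peaks in the same steps; the unmatched share fell from 51.8% and 45.6% in the lowest step to 0 in the highest, where no open symbol can be drawn.

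Matched sites also kept their order. There were 85773 pairs in which each peak overlapped exactly 1 peak of the other list. Over these pairs the ranks had a Spearman correlation of 0.903, given as a description across regions, which share the same 2 lists and are not replicates. The median absolute shift was 4.88 percentile points, and 69.9% of pairs lay within 10 points. Agreement differed along the ranks. Pairs above the 90th percentile by their mean shifted by a median of 0.339 points, whereas pairs between the 20th and the 30th percentile shifted by 12.1 points. Pairs below the 10th percentile shifted by 5.50 points. Percentiles are bounded, which limits the shift of pairs near either end. Pairs were also alike in shape, with a median distance between summits of 3 bp and a median width in OFM HH34 of 0.995 times that in dorsal HH30.

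A shift of more than 25 percentile points was seen in 2935 pairs towards dorsal HH30, or 3.42% of pairs, and in 3095 pairs towards OFM HH34, or 3.61%. Pairs higher in dorsal HH30 stood at a median percentile of 51.4 there and of 14.8 in OFM HH34. Their median width was 412 bp in dorsal HH30 and 231 bp in OFM HH34, and their median −log10 q was 7.51 and 4.16. Pairs higher in OFM HH34 stood at 15.2 in dorsal HH30 and at 51.7 in OFM HH34. Their width was 261 bp and 428 bp, and their −log10 q 4.05 and 7.40. The shifted sites were thus of middling rank on their high side. The pairs were chosen by area score, and in both lists the median width and −log10 q of matched peaks rose with that score. The greater width and −log10 q of the shifted pairs on their high side therefore follow largely from the choice. No pair whose mean percentile was above 80 or below 10 shifted that far. Percentiles are bounded, so pairs near either end had little or no room for such a shift.

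**Figure D2:**
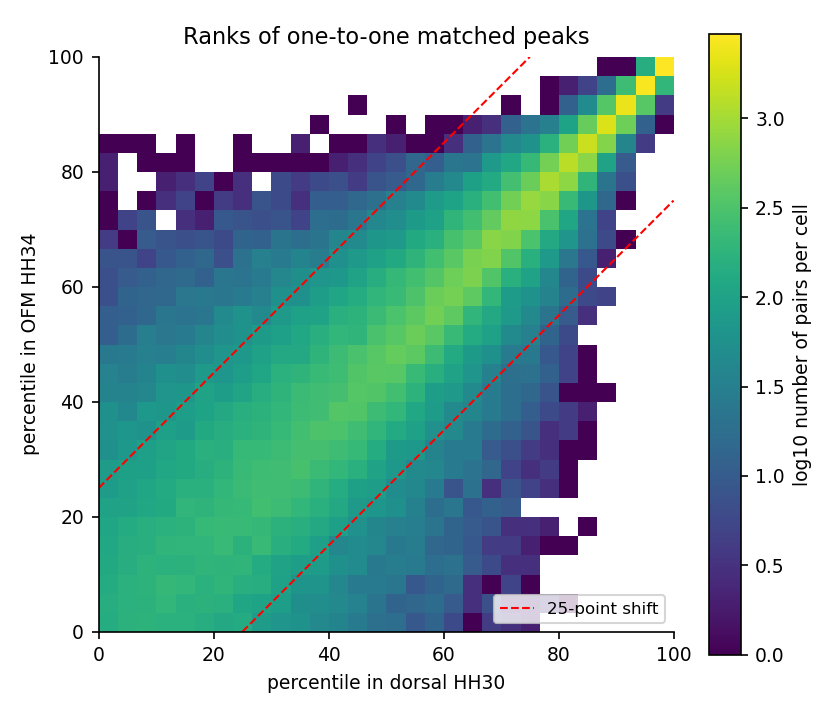
Percentile by area score in dorsal HH30 (x axis) against OFM HH34 (y axis) for the 85773 one-to-one matched pairs; colour gives the log10 number of pairs per cell and white cells hold none. Pairs crowd along the diagonal at high percentiles and spread below the middle; the dashed lines mark a shift of 25 percentile points, which 2935 pairs passed towards dorsal HH30 and 3095 towards OFM HH34.

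Of the sites with exactly 1 peak in each list of the pair, the 5 highest by the lower of their 2 ranks are named. The first was a wide domain on chromosome 16, positions 1828724 to 1843882, which ranked 1 in both lists, with a −log10 q of 50.6 in dorsal HH30 and 52.9 in OFM HH34. The second, on chromosome 1 at 56889 to 67862, ranked 2 in dorsal HH30 and 3 in OFM HH34. The third lay on chromosome 25 (600895 to 610058) and ranked 5 in both. The fourth lay close to the first (chromosome 16, 1810997 to 1820422), with ranks 4 and 6. The fifth, on chromosome 31 (4699334 to 4711620), ranked 7 in both lists of the pair but 55 in OFM HH30 and 2 in dorsal HH34. OFM HH30 held it as 3 peaks, of which the best is ranked here, and dorsal HH34 as 1 peak of 23767 bp. These latter ranks thus belong to peaks of unlike width. These 5 regions were between 9164 and 15159 bp wide.

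Wide domains were sometimes cut differently. A dorsal HH30 peak overlapped more than 1 OFM HH34 peak in 2048 cases, and an OFM HH34 peak overlapped more than 1 dorsal HH30 peak in 2101 cases. The median width of these peaks was 1317 bp and 1451 bp, and their median percentile 83.1 in each list. They were not among the one-to-one pairs, so any change in their rank is not counted in the shifts above. The extreme case in OFM HH34 was a peak of 6781 bp on chromosome 1 (88641264 to 88648044), which spanned 7 dorsal HH30 peaks. In dorsal HH30 it was a peak of 7187 bp on chromosome 4 (1049054 to 1056240), which spanned 5 OFM HH34 peaks.

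Few strong sites of younger dorsal retina lacked a counterpart in older fissure margin. In the upper 25% of the dorsal HH30 list 37 peaks had no OFM HH34 counterpart, and in the upper 50% there were 567. Only 1 of the 37 and 14 of the 567 were also absent from both OFM HH30 and dorsal HH34. The strongest lay on chromosome 19 (7778751 to 7781155), was 2405 bp wide and ranked 11944 with a −log10 q of 12.2. An OFM HH34 peak lay 654 bp away. In dorsal HH34 a counterpart ranked 10083, while in OFM HH30 the best counterpart ranked 78109.

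The second and the third were neighbours on chromosome Z. The peak at 35956851 to 35957994 ranked 12813 in dorsal HH30 and 15502 in dorsal HH34, but 40837 in OFM HH30, with −log10 q of 15.9, 13.5 and 6.04 in that order. The peak at 35958917 to 35960059 ranked 12842, 15570 and 52225 in the same order, with −log10 q of 22.4, 20.2 and 7.11. The nearest OFM HH34 peaks were 23210 bp and 21145 bp away. The fourth lay on chromosome 7 (34892203 to 34893833), with ranks of 13507 in dorsal HH30, 19529 in dorsal HH34 and 80608 in OFM HH30. The fifth lay on chromosome 3 (26402732 to 26403452), with ranks of 13531, 19256 and 60430. All 5 were thus present in each list except OFM HH34. They stood higher in dorsal retina of both stages than in fissure margin at HH30.

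Strong OFM HH34 sites with no dorsal HH30 counterpart were as few, with 29 in the upper 25% of the OFM HH34 list and 558 in the upper 50%. Of these, 0 of the 29 and 8 of the 558 were also absent from both OFM HH30 and dorsal HH34. The first lay on chromosome 6 (29973694 to 29974598). It ranked 13419 in OFM HH34 and 17908 in OFM HH30, with −log10 q of 18.1 and 15.5, and neither dorsal list had a peak there. The other 4 had a peak in dorsal HH34, the list of the same stage. On chromosome 24 (2330315 to 2331240) the site ranked 17140 in OFM HH34 and 23650 in dorsal HH34, and neither HH30 list held it. The same pattern was found on chromosome 2 (64979245 to 64980329), with ranks of 18705 and 28296. On chromosome 28 (4644151 to 4645611) the site was in all lists but dorsal HH30, ranking 17334 in OFM HH34, 33685 in OFM HH30 and 32404 in dorsal HH34, and a dorsal HH30 peak lay 258 bp away. The site on chromosome 1 (906623 to 908764) was likewise missing from dorsal HH30 alone. It ranked 18096 in OFM HH34, 36055 in dorsal HH34 (the better of 2 peaks) and 96118 in OFM HH30.

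Among matched pairs with 1 peak in the upper 25% of its list, those with the largest shift were named. Towards OFM HH34 the first was on chromosome 2 (70169978 to 70170701), at percentile 1.15 in dorsal HH30 and 85.9 in OFM HH34, a shift of 84.7 points. It stood at 80.0 in OFM HH30 and 42.0 in dorsal HH34. The second was on chromosome 1 (173972528 to 173974418), at 4.51 in dorsal HH30, 83.3 in OFM HH34, 83.4 in OFM HH30 and 31.1 in dorsal HH34. The fourth, also on chromosome 1 (126199489 to 126200046), stood at 1.89, 80.2, 80.6 and 50.9 in the same order. In these 3 sites both fissure margin lists stood near each other and above both dorsal lists. The third and the fifth lay on Z (69050558 to 69051260 and 63356955 to 63357918), with percentiles of 3.18 and 0.867 in dorsal HH30 against 81.6 and 78.4 in OFM HH34. In OFM HH30 they stood at 64.8 and 60.5, and in dorsal HH34 at 70.0 and 62.9, so there the dorsal HH30 list alone was low.

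Towards dorsal HH30 the first shifted pair was on chromosome 3 (61734955 to 61735774), at percentile 81.3 in dorsal HH30 and 6.02 in OFM HH34. It stood at 78.8 in OFM HH30 and 36.8 in dorsal HH34, so both HH30 lists were high. In the other 4, the OFM HH34 list alone was near the bottom. They lay on chromosome 4 (69795745 to 69796386), chromosome 10 (12131068 to 12131627), Z (7048906 to 7049833) and chromosome 3 (83969831 to 83970474). They stood between 75.4 and 77.6 in dorsal HH30 and between 4.63 and 6.89 in OFM HH34. Dorsal HH34 held them between 50.7 and 70.3 and OFM HH30 between 30.9 and 58.0.

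Most unmatched peaks stood alone, but some formed stretches in which consecutive peaks of 1 list all lacked a counterpart. Of the unmatched peaks, 67.1% in dorsal HH30 and 66.9% in OFM HH34 stood alone between matched peaks. Stretches of at least 4 numbered 116 in dorsal HH30 and 128 in OFM HH34. A peak of the upper 25% was part of 7 of the dorsal HH30 stretches and of 3 of the OFM HH34 stretches. Within 100 kb of the first or last peak of a chromosome lay 12 of the 128 OFM HH34 stretches and 0 of the 116 dorsal HH30 stretches. The share of all peaks lying that near an end is not given here, so these counts stand without a background.

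The longest dorsal HH30 stretches held strong peaks. On chromosome 10 (16302199 to 16324239), 12 consecutive peaks over 22.0 kb had no OFM HH34 counterpart. Their percentiles ran from 6.64 to 87.1, with a median of 32.9. Of these, 10 had a peak in dorsal HH34 and 3 in OFM HH30. The leading one (16318908 to 16319916) stood at 87.1 in dorsal HH30, 80.9 in dorsal HH34 and 68.3 in OFM HH30.

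On chromosome 15 (12591526 to 12610360), another 12 consecutive peaks over 18.8 kb lacked a counterpart, with a median percentile of 60.5 and a maximum of 82.4. All 12 had a peak in dorsal HH34, at a median percentile of 66.5. In OFM HH30, 3 had one, at percentiles between 8.96 and 17.5. On chromosome 7 (34890319 to 34902502) there were 10 such peaks over 12.2 kb, with a median percentile of 39.6 and a maximum of 87.3. All 10 had a peak in dorsal HH34, at a median of 60.8, and 2 had one in OFM HH30, at 25.8 and 27.6. In each of the 3 stretches the dorsal lists of both stages resembled each other, and OFM HH30 held few and mostly low peaks.

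**Figure D3:**
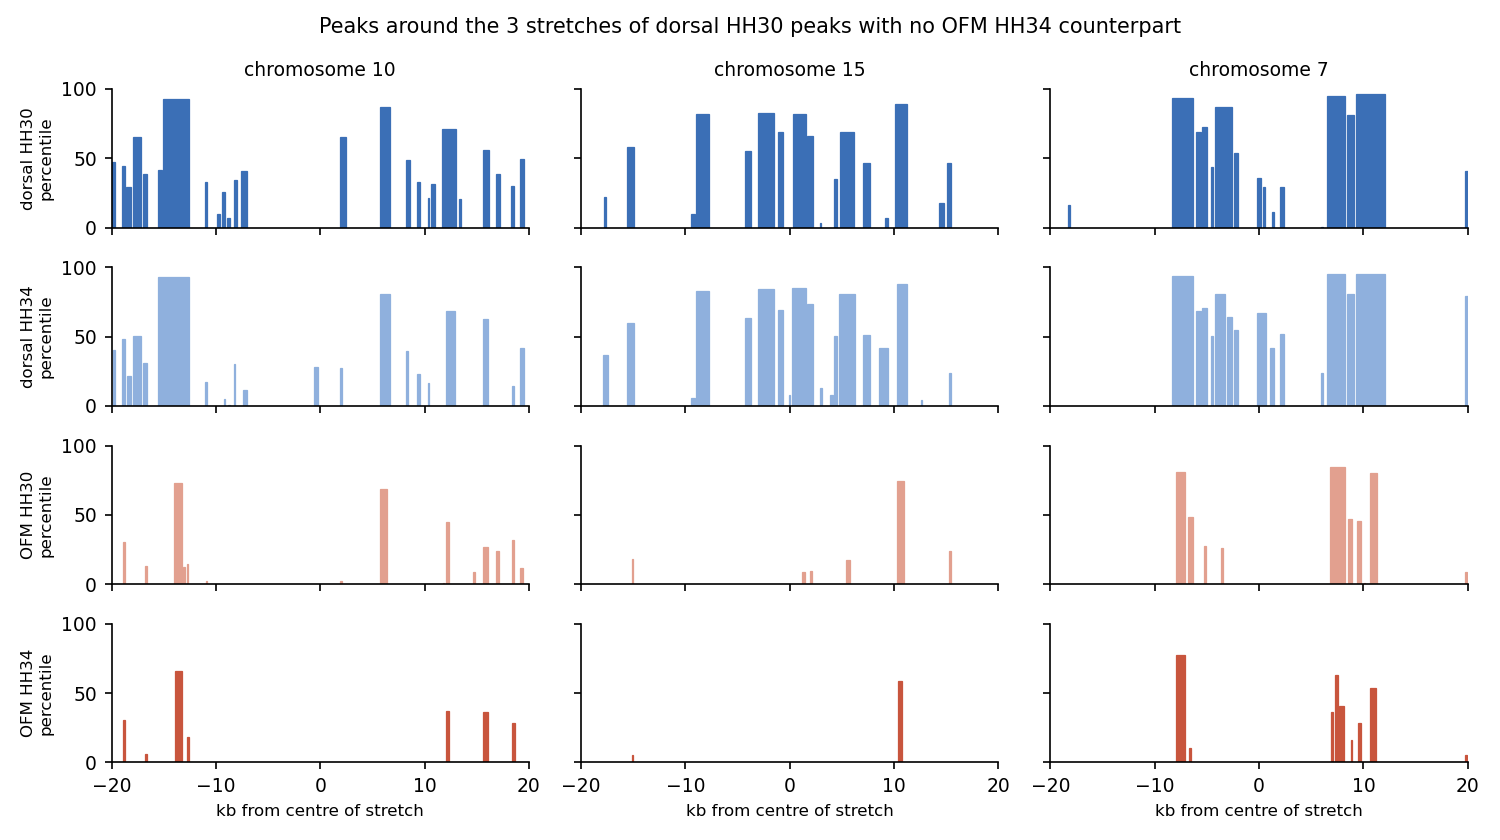
Peaks within 20 kb of the centre of the longest dorsal HH30 stretches on chromosomes 10, 15 and 7, in the 4 lists; bars span each peak and their height is its percentile by area score in its own list. Within the stretches dorsal HH30 has 12, 12 and 10 peaks and OFM HH34 has none; dorsal HH34 has a counterpart to 10, 12 and 10 of them and OFM HH30 to 3, 3 and 2.

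The longest OFM HH34 stretches were weak. On chromosome 24 (6373509 to 6416898) 10 peaks over 43.4 kb had percentiles between 0.482 and 35.3, and the last of them lay 49.8 kb from the last peak of the chromosome. On chromosome 33 (3071529 to 3077075) 9 peaks over 5.55 kb stood between 2.75 and 51.3. On Z (82241979 to 82343598) 9 peaks over 102 kb stood between 8.45 and 39.3. None of the peaks in these 3 stretches had a counterpart in OFM HH30. In dorsal HH34, 6, 7 and 8 of them had one. Over all stretches of at least 4 peaks, the list of the same stage held more of the peaks in 86 of 116 dorsal HH30 stretches and the list of the same tissue in 18. For OFM HH34 these counts were 93 and 22 of 128, so the 3 longest dorsal HH30 stretches were unlike most others.

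The 2 remaining lists show where the unmatched sites were also called. Of the 14001 unmatched dorsal HH30 peaks, 64.9% had a peak in OFM HH30, which shares the stage (95% Wilson interval 64.1% to 65.6%). In dorsal HH34, which shares the tissue, 22.7% had one (22.0% to 23.4%). Both lists held 1533 of them and neither list held 3279. Of the 13120 unmatched OFM HH34 peaks, 59.7% had a peak in dorsal HH34, of the same stage (58.8% to 60.5%). In OFM HH30, of the same tissue, 33.7% had one (32.9% to 34.5%). Both held 1427 and neither held 2299. Over all dorsal HH30 peaks, matched or not, 9.76% lacked a peak in OFM HH30 and 16.3% in dorsal HH34. Over all OFM HH34 peaks, 11.3% lacked a peak in dorsal HH34 and 13.1% in OFM HH30. The remaining lists also differed in length, with 108689 peaks in OFM HH30 and 101452 in dorsal HH34. Fissure and dorsal tissue were both dissected from each eye, per the labels, so the stage and the set of embryos cannot be told apart.

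The balance changed with strength. Of the 567 unmatched dorsal HH30 peaks in the upper 50%, 89.8% had a peak in OFM HH30 and 49.9% in dorsal HH34. In the upper 25%, 31 of 37 had one in OFM HH30 and 28 of 37 in dorsal HH34. The OFM HH30 counterparts of these strongest peaks stood at a median percentile of 54.9 and the dorsal HH34 counterparts at 70.4. For OFM HH34, the shares in the upper 50% were 73.1% in dorsal HH34 and 63.4% in OFM HH30. In the upper 25% they were 25 of 29 (69.4% to 94.5%) and 20 of 29 (50.8% to 82.7%), at median percentiles of 65.1 and 54.9. Sites absent from both remaining lists were at the low end, with median percentiles of 7.51 in dorsal HH30 and 6.65 in OFM HH34.

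Chromosomes differed in which list had the larger unmatched share. On each of chromosomes 1 to 10 the dorsal HH30 list had the larger unmatched share, and on each of the 12 chromosomes from 21 to 33 the OFM HH34 list had it. Chromosomes 11 to 20 were mixed, with the dorsal HH30 share larger on 11, 12, 15 and 19. Chicken chromosomes fall into a few large macrochromosomes and many small, gene-dense and GC-rich microchromosomes. On chromosomes 1 to 5, 14.8% of dorsal HH30 peaks (95% Wilson interval 14.5% to 15.1%) and 12.0% of OFM HH34 peaks (11.7% to 12.2%) were unmatched. On chromosomes 6 to 10 the shares were 14.3% and 11.5%. On chromosomes 11 to 33 they were 10.2% (9.87% to 10.5%) and 13.4% (12.99% to 13.7%). Within the lower 50% of the ranks the same order was seen, with 27.9% against 22.4% on chromosomes 1 to 5 and 20.3% against 26.8% on chromosomes 11 to 33. This lean was not particular to the pair. Between the stages of dorsal retina, 19.3% of HH30 and 11.2% of HH34 peaks were unmatched on chromosomes 1 to 5. On chromosomes 11 to 33 these shares were 10.7% and 15.3%. In fissure margin they were 18.9% and 11.4%, then 10.9% and 16.7%. Between tissues at either stage, fissure margin had the larger share on chromosomes 1 to 5 and dorsal retina on 11 to 33.

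The excess of OFM HH34 was widest on chromosomes 31, 33, 30 and 25. On chromosome 31, 4.00% of 200 dorsal HH30 peaks and 32.8% of 253 OFM HH34 peaks were unmatched. On chromosome 33 these shares were 3.32% of 874 and 22.4% of 1037, on chromosome 30 they were 3.24% of 278 and 20.2% of 327, and on chromosome 25 they were 3.94% of 685 and 18.7% of 764. On these chromosomes matched pairs leaned the same way. The median shift towards OFM HH34 was 6.89 points on chromosome 31, 2.75 on chromosome 33, 1.33 on chromosome 25 and 0.947 on chromosome 30. The lean was not general. On chromosomes 13, 14, 17, 20 and 21, where OFM HH34 also had the larger unmatched share, the median shift was between −0.271 and −0.177 points. On each of chromosomes 1 to 9 it was between −0.904 and −0.538 points. On chromosome 33, 60 of 732 pairs shifted by more than 25 points towards OFM HH34 (8.20%) and 2 towards dorsal HH30 (0.273%). On chromosomes 1 to 5, 1387 of 41092 pairs did so towards OFM HH34 (3.38%) and 1631 towards dorsal HH30 (3.97%). Over all pairs these shares were 3.61% and 3.42%.

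The sex chromosomes went opposite ways. Birds have ZZ males and ZW females, and the sexes of the pooled embryos are not given in the sources used here. On Z, 11.0% of 4571 dorsal HH30 peaks (10.2% to 12.0%) and 15.6% of 4789 OFM HH34 peaks (14.6% to 16.7%) were unmatched, although Z is as large as a macrochromosome. On W, 26 of 109 dorsal HH30 peaks and 4 of 91 OFM HH34 peaks were unmatched, 23.9% (16.8% to 32.7%) and 4.40% (1.72% to 10.8%). Pairs on W stood lower in OFM HH34 by a median of 3.99 percentile points over 79 pairs. The share of male and female embryos in each pool was not tested.

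Of the unmatched OFM HH34 peaks on Z, 46.7% were present in OFM HH30 and 43.0% in dorsal HH34. On chromosomes 11 to 33 these shares were 23.6% and 70.6%. The 95% Wilson intervals were 43.2% to 50.3% and 39.5% to 46.5% on Z. On chromosomes 11 to 33 they were 22.3% to 24.8% and 69.3% to 71.9%. Both shares are of the same peaks, and on Z 81 peaks counted in both, so the intervals do not compare the shares. Unmatched dorsal HH30 peaks on Z were present in OFM HH30 in 78.6% and in dorsal HH34 in 13.1% of cases.

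**Figure D4:**
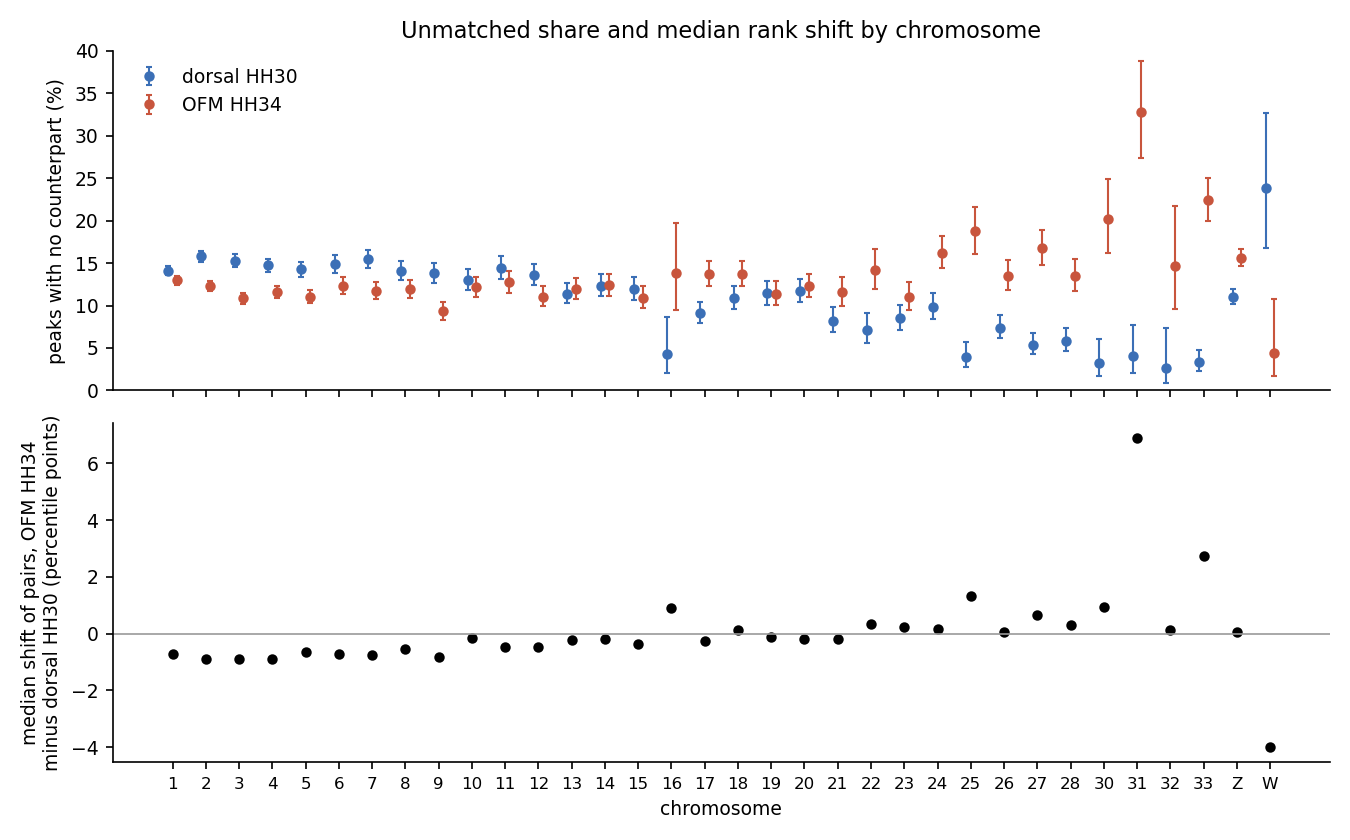
Top, the share of peaks with no counterpart (%, with 95% Wilson intervals) on each chromosome in dorsal HH30 and OFM HH34. Bottom, the median shift in percentile points of one-to-one pairs, OFM HH34 minus dorsal HH30; dorsal HH30 has the larger unmatched share on chromosomes 1 to 10, OFM HH34 on chromosomes 21 to 33 and Z, and W stands apart with a shift of −3.99.

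The outer parts of chromosomes also leaned towards OFM HH34. Within 1 Mb of the first or last peak of chromosomes 1 to 5, 9.32% of dorsal HH30 peaks (8.00% to 10.8%) and 14.9% of OFM HH34 peaks (13.3% to 16.7%) were unmatched. Farther in, the shares were 15.0% and 11.9%. The same turn was seen on chromosomes 6 to 10, with 9.94% and 14.6% near the ends against 14.7% and 11.3% farther in. On Z the shares near the ends were 5.63% of 213 dorsal HH30 peaks and 29.96% of 277 OFM HH34 peaks, against 11.3% and 14.7% farther in. On chromosomes 11 to 33 they were 8.44% and 15.0% near the ends, against 10.6% and 12.9% farther in. There and on Z the OFM HH34 share was larger in both places, so the order did not turn.

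The unmatched share of dorsal HH30 was higher where peaks were sparse. Of dorsal HH30 peaks whose nearest peak of the same list was under 1 kb away, 11.4% were unmatched, against 16.7% where it was 5 kb or more away. In OFM HH34 these shares were 12.1% and 12.9%. In the lower 50% of the ranks the shares were 22.8% and 29.3% in dorsal HH30, and 24.5% and 22.5% in OFM HH34, so the slope with spacing was of opposite sign.

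Placed among the 6 pairs that the 4 lists allow, dorsal HH30 and OFM HH34 were the third closest. Over both lists of a pair, 12.8% of peaks were unmatched, against 10.9% between tissues at HH30 and 9.78% between tissues at HH34. The pairs that share a tissue across stages stood at 14.5% in dorsal retina and 14.7% in fissure margin. The other crossed pair, OFM HH30 with dorsal HH34, stood at 20.01%. The Spearman correlation of ranks followed the same order, with 0.903 for dorsal HH30 with OFM HH34, 0.888 and 0.887 for dorsal retina and fissure margin across stages and 0.829 for the other crossed pair. By both measures, younger dorsal retina was nearer to older fissure margin than either was to its own tissue at the other stage. These lists carry no replicate error, the pairs share lists, and the differences between pairs were not tested.

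**Figure D5:**
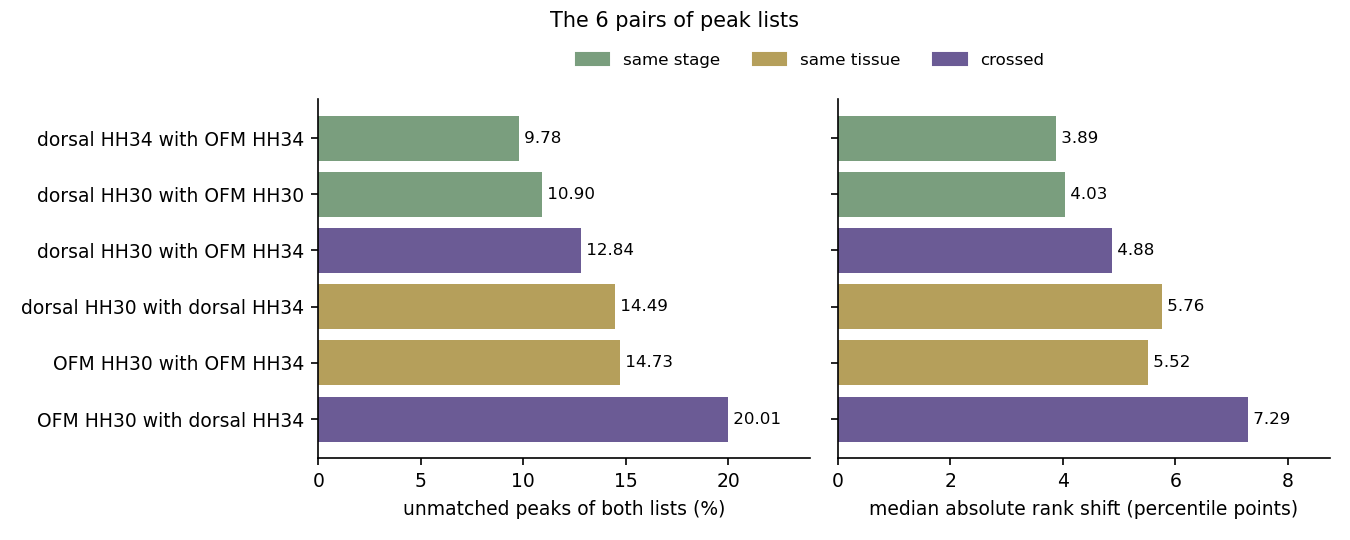
The 6 pairs of peak lists, ordered by the share of unmatched peaks over both lists (left, %) and with the median absolute shift of one-to-one pairs (right, percentile points); colours mark pairs that share the stage, the tissue or neither. Dorsal HH30 with OFM HH34 lies at 12.84% and 4.88 points, between the same-stage and the same-tissue pairs, and OFM HH30 with dorsal HH34 lies apart at 20.01% and 7.29 points.

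The lists were also ordered within each site. Among 69386 regions with exactly 1 peak in each of the 4 lists, the dorsal HH30 and OFM HH34 percentiles were the middle values of the 4 in 47.6%. The other crossed pair held the middle in 17.2%, the fissure margin pair in 12.9% and the dorsal pair in 9.33%. The pairs of the same stage held it in 6.92% at HH34 and 6.02% at HH30. An even split over the 6 pairs would give each 1 in 6, which is near the share of the other crossed pair. These shares describe which lists lay at the outside and do not follow the order of the 6 pairs. Regions in which the pair differed by more than 25 points were chosen on these same ranks, so that a median of a further list between the 2 follows from the choice, and the values are a description. For 2024 such regions higher in dorsal HH30, the median percentiles were 54.4 in dorsal HH30, 45.2 in OFM HH30, 26.9 in dorsal HH34 and 18.2 in OFM HH34. For 1907 regions higher in OFM HH34 they were 19.2 in dorsal HH30, 35.1 in OFM HH30, 44.4 in dorsal HH34 and 55.7 in OFM HH34. OFM HH30 was nearer to dorsal HH30 than to OFM HH34 in 76.3% of the former regions and in 51.9% of the latter. For dorsal HH34 these shares were 28.9% and 33.4%.

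Nearly all sites shared by the pair were shared more widely. The 4 lists merged into 127749 regions, of which 87933 had a peak in both dorsal HH30 and OFM HH34. Of these, 77405 were in all 4 lists, 5741 were missing from dorsal HH34 alone and 4472 from OFM HH30 alone. These latter sets differed in place, since 17.5% of the former and 42.1% of the latter lay on chromosomes 11 to 33, against 31.04% of regions in all 4. On Z lay 7.05% and 2.53%.

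Regions held by dorsal HH30 and OFM HH34 alone numbered 315, or 0.247% of the 127749 regions, against 126, or 0.0986%, for the other crossed pair. Other pairs held far more alone, here counted as peaks. Of dorsal HH30 peaks, 7547 were also in OFM HH30 alone and 1642 in dorsal HH34 alone. Of OFM HH34 peaks, 6402 were also in dorsal HH34 alone and 2992 in OFM HH30 alone. The 315 regions were at the bottom of both lists, with a median percentile of 6.78 in dorsal HH30 and 6.58 in OFM HH34. Their median width was 230 bp. No such region stood above percentile 38.5 in dorsal HH30 or 37.5 in OFM HH34. By the lower of its 2 ranks, the highest lay on chromosome 11 (18743632 to 18743998), ranking 70052 in dorsal HH30 and 79564 in OFM HH34, with −log10 q of 4.98 and 3.49. A dorsal HH34 peak lay 953 bp away and an OFM HH30 peak 1068 bp away. The next lay on chromosome 12 (11962734 to 11963003), chromosome 9 (12553793 to 12554172), chromosome 28 (3223475 to 3223945) and chromosome 4 (4717090 to 4717354). Their ranks lay between 65342 and 88101 in dorsal HH30 and between 78555 and 84546 in OFM HH34. Of the 87933 shared regions, all but these 315 were held by at least 1 of the remaining lists.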

How the data were processed

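The deposited data are 4 peak lists, 1 per group, from 12 omni-ATAC-seq libraries sequenced as 75 bp read pairs. Each library had 189 M reads or more, per the labels' protocols. Read totals of single libraries are not used here. Peaks were called jointly over the replicates of a group with Genrich, per the labels. The submitters' processing notes name Trim Galore, cutadapt 1.16, Bowtie2 2.3.4.3, SAMtools 1.6, Genrich 0.6, deepTools 3.5.0 and the build galGal6 (GRCg6a). Settings, and any shift for Tn5, are not given in the sources used here, and either would change the width and number of peaks. Joint calling hides whether 1 replicate carried a peak. The lists have no header, and their 10 columns follow the narrowPeak order. The area score is the authors' deposited score, with a smallest value just above 200.00 in each list, and was used as ranks within a list only. The −log10 q at the summit is the authors' deposited value, and their −log10 p was not used. The capped score equalled 1000 times area score over width, at most 1000, in 100% of peaks (within 1 unit), and the other deposited values, the summit offsets in bp, served to compare summits.

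Peaks were matched at 1 bp overlap, ranked and merged with Python 3.11.15, numpy 2.4.6, pandas 2.3.3 and scipy 1.17.1, and plotted with matplotlib 3.10.9. Over 20000 simulated regions, 4 of 4 planted quantities (unmatched peaks of each list, one-to-one pairs, merged regions) were recovered exactly, which checks the computation alone. Intervals are 95% Wilson intervals. Coordinates are those of the lists, counted from 1. The gene table at hand was of GRCg7b, and peaks lay past its last gene on 25 of 34 chromosomes, so it was not used, and gene lists and cell type markers were not run. Named regions followed a rule: the 5 highest-ranked unmatched peaks of each list, the 5 largest shifts in each direction among pairs with a peak in the upper 25%, the 5 highest shared pairs and the 5 highest regions in the crossed lists alone. The members, lists and rules were chosen with earlier results of these data known. Stretches of consecutive peaks, chromosome ends, spacing and the comparison of the 6 pairs were chosen after the values had been seen. Alternatives were 50% reciprocal overlap, summits at most 200 bp apart, the upper 50% of lists, equal length, ranks by −log10 q or within chromosomes, 30 points in place of 25, and omission of Z and W.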

Additional observations from a re-analysis of the deposited data

How the results depend on the processing

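Joint lists have no depth or replicate values here, so whether a missing peak reflects depth was not tested, and leaving out replicates was not run. No paired analysis was possible because the lists carry no value per replicate. Of 76 alternative values, 45 stayed within their limits (1.5 times a count, the Wilson interval of a share, 0.01 of a correlation, the same place among the pairs) and 31 moved. Dorsal HH30 with OFM HH34 stayed the third closest of the 6 pairs at equal length, in the upper 50% and in 4 chromosome classes alone, settings added after the data had been seen.

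At 50% reciprocal overlap, unmatched peaks rose to 21479 in dorsal HH30 and 20412 in OFM HH34, and matched shares fell to 79.8% and 80.6%. Chromosomes 11 to 33 then held 28.9% of unmatched dorsal HH30 peaks (23.5% as reported), and Z held 4.65% of unmatched OFM HH34 peaks (5.69%). In the full lists, these places held 30.3% of dorsal HH30 peaks and 4.56% of OFM HH34 peaks. At this setting both unmatched shares were thus near those of the lists. Chromosomes 11 to 33 held 33.8% of unmatched OFM HH34 peaks, against 31.3% of that list. Of unmatched dorsal HH30 peaks, 58.3% were in OFM HH30 and 24.7% in dorsal HH34. Of unmatched OFM HH34 peaks, 56.9% were in dorsal HH34 and 31.4% in OFM HH30. The rank correlation became 0.926, and the regions in the crossed lists alone became 1448, since a stricter overlap splits regions by construction.

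With summits at most 200 bp apart, 82.1% and 83.0% were matched. In the upper 50% of both lists, 6364 and 5950 peaks were unmatched by construction of shorter lists, 88.0% and 88.7% were matched, 35.0% of unmatched OFM HH34 peaks lay on chromosomes 11 to 33 and 4.89% on Z, and 121 regions were in the crossed lists alone. With the other list in full, 567 and 558 were unmatched, and 98.9% of each were matched. At equal length 87.3% and 87.1% were matched, with 13377 unmatched dorsal HH30 peaks against 13510 in OFM HH34, so the order of the counts turned (this setting trims the 2 lists of the pair to the shorter), and 65.7% of the former were in OFM HH30. Without Z and W, 60.7% of unmatched OFM HH34 peaks were in dorsal HH34. At 30 points, 1797 pairs were higher in dorsal HH30 and 1949 in OFM HH34. Where no construction is named, the cause of a move was not tested.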

Other observations

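Regions held by every list but 1 of the pair were compared in place and rank. There were 1489 regions missing from OFM HH34 alone and 1360 missing from dorsal HH30 alone. The former stood at a median percentile of 26.7 in dorsal HH30, 16.8 in OFM HH30 and 11.1 in dorsal HH34. The latter stood at 29.01 in OFM HH34, 16.5 in dorsal HH34 and 13.3 in OFM HH30. On Z lay 3.02% of the former and 5.74% of the latter, against 4.39% of regions in all 4 lists.

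A further stretch of dorsal HH30 peaks lay beside the one described on chromosome 15. At 12546954 to 12583362, 8 consecutive peaks over 36.4 kb had no OFM HH34 counterpart, and all 8 had a peak in dorsal HH34 and 4 in OFM HH30. By contrast, 6 consecutive peaks over 96.8 kb on chromosome 1 (156271991 to 156368781) were all in OFM HH30 and in 0 cases in dorsal HH34. Their best rank was 55056.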
